A study of Mus musculus with 30 samples.

Results

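ID4-GFP cells of the mouse testis at postnatal day 7 (P7) were compared with OCT4-GFP cells of the same age. The comparison rests on 2 of the 30 samples of the series, 1 RNA library for each reporter, and on all 20889 genes of the deposited expression table. It was read as the difference of log2(FPKM + 1), ID4-GFP minus OCT4-GFP, where FPKM is the number of sequenced fragments of a gene, normalised by the length of its transcript and by the depth of its library. Each side has 1 library, so the error between replicates is unknown, nothing was tested, and all values describe these 2 libraries only.

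Spermatogonial stem cells sustain sperm production, and in the first week after birth they form in the testis cords from fetal germ cells together with progenitors that will differentiate. ID4 is a transcription inhibitor whose reporter marks the part of undifferentiated spermatogonia richest in stem cells in transplantation assays. OCT4, encoded by Pou5f1, is a pluripotency factor that fetal germ cells carry and undifferentiated spermatogonia retain, so its reporter marks a wider set of early germ cells. Both kinds of germ cell lie among Sertoli cells, which nurse them, and next to peritubular muscle-like cells, steroid-producing Leydig cells and resident macrophages.

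The series follows male germ cells of C57BL/6 mice from P0 to P14 by RNA sequencing, bisulfite sequencing and chromatin immunoprecipitation. Both libraries studied here came from live GFP-positive cells, sorted by flow cytometry from 7-day-old reporter mice, and were made as strand-specific libraries from total RNA freed of ribosomal RNA. Neither the allele that drives each GFP, nor the gate, nor whether 1 animal or a pool was used is given in the labels. The table has 11 columns with 1 value per gene, and 3 further P7 columns are set beside the pair: THY1 and KIT cells, enriched with magnetic beads and standing for 2 libraries each, and 1 library labelled P7 VASA THY1. The protocol names VASA-GFP cells only at P0, so the age of that library is uncertain. The KIT and THY1 columns share no library with the GFP pair. Read depth is not in FPKM values; among 569 genes under 0.05 FPKM in both libraries the commonest ratio of values was 0.88, held by 108 of them, which would put ID4-GFP at 1.14 times the depth of OCT4-GFP. No interval can be given without counts.

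The 2 libraries were close to each other over most genes. Pearson's r of log2(FPKM + 1) was 0.974 across the 12373 genes at 1 FPKM or more in either library, where genes are not independent replicates. The r of ID4-GFP with the other columns ran from 0.689 (P0 THY1) to 0.941 (P0 OCT4-GFP). Of the 8612 genes at 5 FPKM or more in both, 98.4% lay within 1.5-fold, and the SD of the difference over these genes was 0.22. This SD is a spread across genes and not an error between replicates. The minimum in both libraries leaves out many genes that differ. Of the 9157 genes at 5 FPKM or more in either library, 34 were at least 1.5-fold higher in ID4-GFP and 311 at least 1.5-fold lower. The median difference over the 9157 genes at 5 FPKM or more in either library was 0.04, and 58.8% of them had a positive difference, or 48.3% when the columns were scaled to a median log2 ratio of 0.

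Genes were counted at a difference of at least 1, which is 2-fold on the log2(FPKM + 1) scale, and needed at least 5 FPKM in the higher library. By this rule 153 genes were lower in ID4-GFP, 1.67% of the 9157, and 2 were higher, 0.0218%. At 4-fold 66 were lower, 0.721%, and 0 were higher, 0.0%. The pair of higher genes was Dmrtb1, which encodes a regulator of the switch from mitosis to meiosis in spermatogonia, and Ovgp1, the oviductal glycoprotein gene. Just inside the limit for lower genes lay Cyba at -1.01 and E130306D19Rik at -1.01, and just outside lay Cyth4 at -0.999 and Thra at -0.99. Among the 153 were 26 of the members of 7 lists of markers of other testis cells, and 45 when a phagocyte list drawn up after the values were seen was added. The germ cell lists held 3 of the 153: Upp1, Ddit4 and Klf2.

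**Figure D1:**
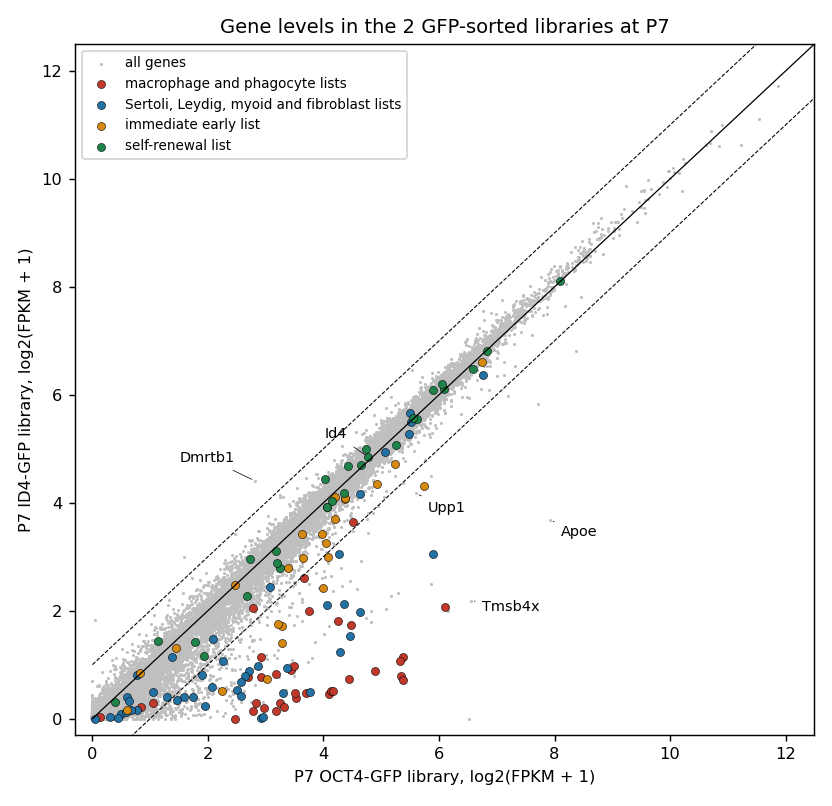
Each point is 1 of the 20889 genes, with log2(FPKM + 1) in P7 OCT4-GFP on the horizontal axis and in P7 ID4-GFP on the vertical axis. Genes beyond the ends of the axes, Rmrp among them, are not shown. The solid line marks equal levels and the dashed lines a difference of 1 in either direction. Self-renewal genes in green lie along the solid line, while most macrophage and phagocyte genes in red with FPKM of 5 or more, and many Sertoli, Leydig, myoid and fibroblast genes in blue, lie below the lower dashed line.

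Genes of macrophages, the resident phagocytes of the testis, were among those with the largest differences. Rmrp differed more, but by a listed 0 in ID4-GFP that may be a missing estimate. Of 14 macrophage markers 13 were in the table, and 10 reached FPKM of 5 in either library. All 10 were counted lower in ID4-GFP and 9 of them at 4-fold, beside backgrounds of 1.67% and 0.721%. None of the 10 reached FPKM of 5 in ID4-GFP, so all passed the filter through OCT4-GFP only, which favours a lower count. Of the 9157 background genes, 8612 reached it in both libraries. Tyrobp, which encodes a signalling adaptor of myeloid receptors, stood at 0.641 FPKM in ID4-GFP and 40.5 FPKM in OCT4-GFP (difference -4.66). The complement genes C1qa, C1qb and C1qc, whose proteins form the first component of the classical pathway, stood at 1.21, 0.832 and 1.09 FPKM against 40.5, 28.8 and 39.3 FPKM. Lyz2, the macrophage lysozyme gene, stood at 3.19 against 68.0 FPKM, and Csf1r, the receptor gene for the growth factor that macrophages depend on, at 0.366 against 16.1 FPKM. As plain ratios of FPKM these 6 genes were from 21.3-fold (Lyz2) to 63.2-fold (Tyrobp) apart, and the smallest difference of the 10 was that of the lysosomal gene Cd68, at 2.99 against 12.4 FPKM. In a bulk library fewer cells of a type and less RNA per cell cannot be told apart.

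The summed level of the 13 macrophage markers was 15.7 FPKM in ID4-GFP and 296 FPKM in OCT4-GFP, and none of the 13 was listed at 0 in either library. The OCT4-GFP sum was also above those of the other P7 columns, with 9.53 FPKM in VASA THY1, 109 FPKM in THY1 and 47.1 FPKM in KIT. The P0 OCT4-GFP library, of cells taken at birth, had a sum of 468 FPKM and P0 THY1 had 601 FPKM. Not every leukocyte gene had this order. Ptprc, which encodes the pan-leukocyte antigen CD45, stood at 0.797 FPKM in P7 OCT4-GFP and at 7.77 FPKM in THY1, and Cd74, of the antigen-presenting pathway, at 1.07 and 32.2 FPKM. The median difference of the 11 markers with FPKM of 1 or more in either GFP library was -3.65, beside 0.0047 over all such genes.

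**Figure D2:**
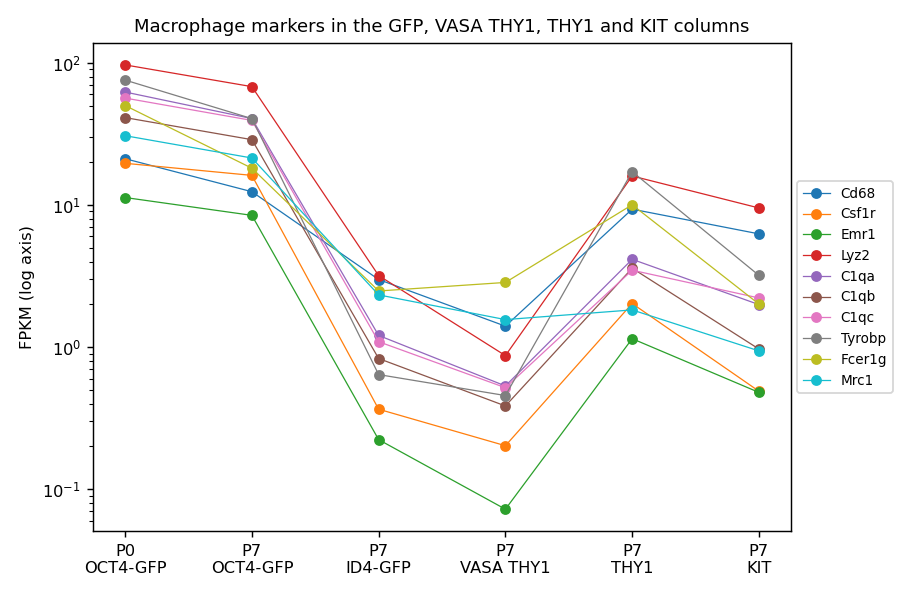
FPKM on a log axis of the 10 macrophage markers with FPKM of 5 or more in either P7 GFP library, in 6 columns of the table; each colour is 1 gene and the lines only join its values. All 10 lie lower in P7 ID4-GFP than in both OCT4-GFP libraries, for example Tyrobp at 0.641 against 40.5 FPKM at P7.

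A list of 22 further phagocyte genes was drawn up from the lower genes after their values were seen, and so is not independent evidence. It had 21 members at 5 FPKM or more. Of these 19 were counted lower and 16 of them at 4-fold, beside 1.67% and 0.721% of all genes. The median level of the 22 was 0.545 FPKM in ID4-GFP and 9.44 FPKM in OCT4-GFP. Most thus passed the filter through OCT4-GFP only, which favours a lower count. Pf4, a chemokine gene of platelets and tissue macrophages, stood at 0.734 FPKM in ID4-GFP and 39.4 FPKM in OCT4-GFP, and Ctss, a lysosomal protease gene, at 0.662 and 20.8 FPKM. Cx3cr1, the fractalkine receptor gene, stood at 0.381 and 11.9 FPKM, with 0.367 FPKM in VASA THY1, 0.417 FPKM in THY1 and 0.387 FPKM in KIT. Trem2, a lipid-sensing receptor gene, stood at 0.394 and 10.4 FPKM, with 0.364 FPKM in THY1 and 0.455 FPKM in KIT. For Cx3cr1 and Trem2, therefore, P7 OCT4-GFP stood apart from all 4 other P7 columns. Outside both lists Apoe, the apolipoprotein E gene, stood at 11.8 against 241 FPKM (difference -4.23). Tmsb4x, an actin-binding peptide gene of many cell types, stood at 3.56 against 92.7 FPKM, but at 106, 580 and 283 FPKM in VASA THY1, THY1 and KIT.

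Since these genes differed together, their promoters were searched for GAGGAA, the core recognised by the myeloid transcription factor PU.1. The search took the 250 bases before the first listed start of each gene, on both strands, in RefSeq sequence of GRCm38.p6, and no other motif was searched. The 4 promoters below, of genes among the largest differences, are examples that hold a match, 1 each. Not every promoter of these genes holds one (14 of 23 did), and those of Tyrobp, C1qa and Lyz2 are not printed. Capitals mark GAGGAA or, for a match on the other strand, TTCCTC, and each promoter is printed 5′ to 3′ on the strand of its gene. C1qb is at chr4:136886201-136886450 on the minus strand, C1qc at chr4:136892915-136893164 on the minus strand, Pf4 at chr5:90772185-90772434 on the plus strand and Ctss at chr3:95526536-95526785 on the plus strand.
C1qb: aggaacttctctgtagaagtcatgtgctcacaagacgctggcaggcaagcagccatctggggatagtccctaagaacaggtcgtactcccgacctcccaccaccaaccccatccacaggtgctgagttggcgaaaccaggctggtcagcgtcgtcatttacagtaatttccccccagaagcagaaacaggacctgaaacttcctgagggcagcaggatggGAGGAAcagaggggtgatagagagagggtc
C1qc: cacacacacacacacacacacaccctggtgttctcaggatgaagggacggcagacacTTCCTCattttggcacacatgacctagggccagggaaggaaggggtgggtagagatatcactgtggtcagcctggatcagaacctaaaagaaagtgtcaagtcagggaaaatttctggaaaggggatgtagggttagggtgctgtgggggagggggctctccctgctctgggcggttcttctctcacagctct
Pf4: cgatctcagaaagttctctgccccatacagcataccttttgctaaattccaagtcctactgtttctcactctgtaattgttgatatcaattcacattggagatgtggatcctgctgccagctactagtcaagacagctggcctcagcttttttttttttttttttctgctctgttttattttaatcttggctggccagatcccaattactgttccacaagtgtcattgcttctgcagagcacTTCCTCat
Ctss: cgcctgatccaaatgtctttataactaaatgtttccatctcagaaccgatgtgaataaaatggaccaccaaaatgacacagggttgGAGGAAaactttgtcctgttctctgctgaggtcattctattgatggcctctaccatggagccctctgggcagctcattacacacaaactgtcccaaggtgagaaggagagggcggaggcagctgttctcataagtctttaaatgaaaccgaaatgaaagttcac

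Of the 31 macrophage and phagocyte genes with FPKM of 5 or more in either library, 23 had a promoter in the RefSeq table and 14 of these, 60.9%, held the hexamer. Of the 31, 21 came from the phagocyte list drawn up after the values were seen, so this share is a description only. Among the other lower genes 22 of 90 held it, 24.4%. The share was 21.8% of 6589 promoters of genes with FPKM of 5 or more and 23.1% of all 27025 promoters. A match describes the letters in this window and is no measure of binding.

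Many markers of the somatic cells of the testis were also lower in ID4-GFP, each list with its own level in the other columns. Of 17 Sertoli markers 16 were in the table and 8 reached FPKM of 5. Of these, 6 were counted lower, beside 1.67% of all genes: Clu, Aard, Inha, Amh, Gata4 and Dhh. All but Clu passed the filter through OCT4-GFP only. Clu, which encodes the secreted chaperone clusterin, stood at 7.24 FPKM in ID4-GFP and 58.6 FPKM in OCT4-GFP, but at 549 FPKM in VASA THY1, 414 FPKM in THY1 and 305 FPKM in KIT. Amh, the anti-Müllerian hormone gene, stood at 3.30 and 15.6 FPKM, and Dhh, the desert hedgehog ligand gene, at 0.851 and 5.54 FPKM. The 16 summed to 141 FPKM in ID4-GFP, 297 FPKM in OCT4-GFP, and 1494, 1143 and 729 FPKM in VASA THY1, THY1 and KIT. By this sum both GFP libraries were under the other P7 columns and ID4-GFP was the lower of the pair. Not every member had that order, since Amh stood at 13.2 FPKM in KIT, under OCT4-GFP.

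Leydig markers had 4 of 5 members with FPKM of 5 or more counted lower, again beside 1.67% of all genes. These 4 passed the filter through OCT4-GFP only. Cyp17a1 and Hsd3b1, whose enzymes make androgens, had 0.0101 and 0.382 FPKM in ID4-GFP against 6.54 and 8.87 FPKM in OCT4-GFP, and the hormone gene Insl3 had 0.0196 against 6.74 FPKM. Fdx1, an electron carrier gene of steroid synthesis that other cells use too, stood at 43.9 and 44.6 FPKM. Hsd3b6 was listed at 0 in ID4-GFP, and Hsd3b1 may share reads with close copies of the gene. The list summed to 48.1 against 87.7 FPKM, and to 1281 FPKM in KIT. Most of the ID4-GFP sum was Fdx1.

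Of the peritubular myoid markers 2 of 3 with FPKM of 5 or more were counted lower, beside the same 1.67%: Acta2 and, except with a pseudocount of 5, Myl9. The remaining member, Smoc2, stood the other way, at 49.7 FPKM in ID4-GFP against 44.3 FPKM in OCT4-GFP. Acta2, the smooth muscle actin gene, stood at 0.410 against 12.7 FPKM. Of the fibroblast and stroma markers 3 of 6 were counted lower, beside the same background: Col1a2 at 1.36 against 18.5 FPKM, Col3a1 at 1.87 against 21.0 FPKM and Dcn at 0.907 against 9.28 FPKM. Acta2 and these 3 passed the filter through OCT4-GFP only. Another collagen gene, Col1a1, stood at 16.8 against 23.9 FPKM and was not counted. Cd34 was the 1 endothelial marker of 2 that was counted, at 1.52 against 5.58 FPKM, and was not with a pseudocount of 5, while Egfl7 stood at 24.3 against 23.3 FPKM. None of the 9 red cell and mast cell markers in the table reached FPKM of 5. The part of other cells in the differences of any further gene was not tested.

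**Figure D3:**
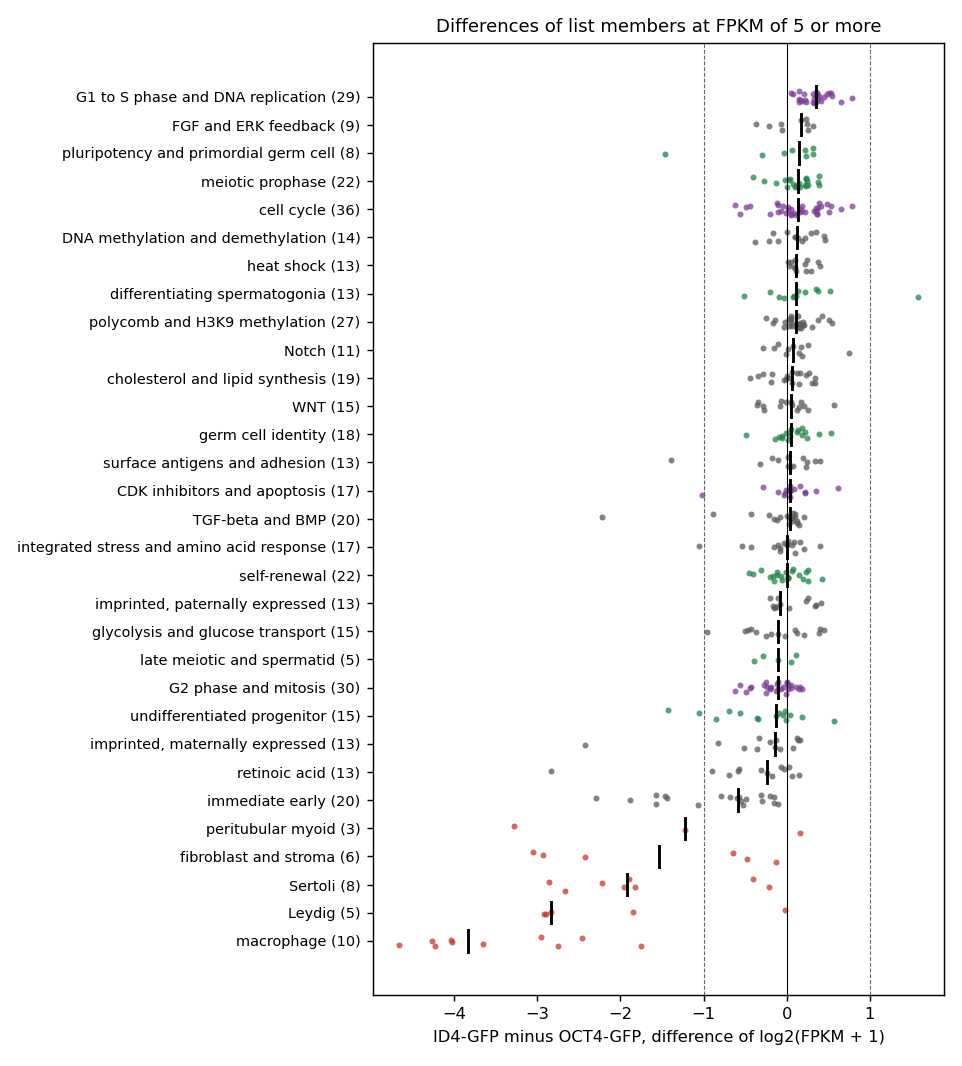
Each point is a gene with FPKM of 5 or more in either P7 GFP library, placed by its difference of log2(FPKM + 1), ID4-GFP minus OCT4-GFP, for each list with at least 3 such genes; list sizes are in brackets, black bars are list medians, and dashed lines mark a difference of 1 in either direction. Lists of the cell cycle are in purple and other lists in grey. Lists of other cell types in red reach furthest to the left, all 10 macrophage genes among them, while the germ cell lists in green centre near 0.

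Across the P7 columns the 153 lower genes did not have 1 order. By their choice none could have its highest P7 level in ID4-GFP; 45 had it in OCT4-GFP, 39 in VASA THY1, 38 in THY1 and 31 in KIT. ID4-GFP was the lowest of the 5 P7 columns for 117 of them, beside 11.2% of all genes with FPKM of 5 or more, though being lower than OCT4-GFP is part of the choice of these genes. It was the lowest of all 11 columns for 96. Of the 45 highest in OCT4-GFP, 26 were in the macrophage or phagocyte lists, and 36 were higher still in P0 OCT4-GFP. The 19 outside those lists included Apoe, the selenium carrier gene Sepp1 at 4.66 against 57.0 FPKM, and Upp1. In ID4-GFP 42 of the 153 stood under 1 FPKM and 26 at 5 FPKM or more.

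The 153 genes were also looked up in KIT minus THY1 at P7, a pair of columns with no library in common. There 123 had FPKM of 5 or more in either column; 13 were 2-fold higher in KIT, 10.6%, and 16 were 2-fold lower, 13.01%. Over all 9817 such genes the shares were 2.78% higher and 2.73% lower. The median KIT minus THY1 difference of all 153, with no minimum in KIT or THY1, was -0.37. Over the 9817 genes, which have that minimum, it was 0.03. Genes lower in ID4-GFP were thus found at both ends of the KIT to THY1 contrast, Insl3 and Cyp17a1 at one end and Tyrobp and Atf3 at the other. Across the 8612 genes at 5 FPKM or more in both GFP libraries, Pearson's r between the 2 differences was 0.03, a description over genes that are not independent.

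Most germ cell genes differed little. The genes of both reporters stood at like levels: Id4 at 27.7 FPKM in ID4-GFP and 26.3 FPKM in OCT4-GFP, and Pou5f1 at 36.5 and 29.2 FPKM. Ddx4, the gene of the germ cell helicase VASA, stood at 225 and 198 FPKM, and Dazl, of a germ cell RNA-binding protein, at 584 and 404 FPKM. Of 19 germ cell identity genes in the table, none was listed at 0 in either library. Their median level was 89.9 FPKM in ID4-GFP and 78.2 FPKM in OCT4-GFP, so both libraries held germ cell transcripts. None of the 18 with FPKM of 5 or more was counted in either direction, beside 1.67% of all genes counted lower. Thy1 stood at 1.17 and 1.64 FPKM and Kit at 38.8 and 36.7 FPKM.

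Among 26 self-renewal genes, 22 reached FPKM of 5 and 0 were counted higher or lower; the median over the 25 with FPKM of 1 or more was -0.01, beside 0.0047 over all genes. The receptor for GDNF, the Sertoli growth factor that maintains stem cells, is formed by the products of Gfra1, at 67.5 FPKM in ID4-GFP and 58.7 FPKM in OCT4-GFP, and Ret, at 72.8 and 65.6 FPKM. The GDNF-responsive transcription factor genes Etv5 and Bcl6b stood at 31.0 and 25.8 FPKM and at 24.5 and 20.4 FPKM. Pou3f1, another of them, had the largest positive difference of the 22, 0.43, at 20.8 and 15.2 FPKM, but Lhx1, which responds to the same signal, stood at 3.82 and 5.37 FPKM. Nanos2, an RNA-binding repressor of differentiation, stood at 6.79 and 5.63 FPKM, Zbtb16, of the transcription factor PLZF, at 111 and 112 FPKM, and Plvap at 5.89 and 8.45 FPKM. Of the 22, 11 had a positive and 11 a negative difference, beside 58.8% positive over all genes with FPKM of 5 or more. With other scalings of the columns 8 or 9 were positive. T, the brachyury gene, was under 5 FPKM in both, at 1.24 and 2.79 FPKM.

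Genes of undifferentiated progenitors had more negative than positive differences. Of 15 with FPKM of 5 or more, 12 had a negative difference, 13 with the columns scaled to a median log2 ratio of 0. Over all genes with FPKM of 5 or more 58.8% were positive, or 48.3% with that scaling. Counted lower were 2, beside 1.67% of all genes, or 1 with a pseudocount of 5. They were Upp1, the uridine phosphorylase gene, at 17.1 against 47.4 FPKM, and Ddit4, an inhibitor of the growth kinase mTORC1, at 12.99 against 28.1 FPKM (-0.88 with that pseudocount). Upp1 stood higher in P7 OCT4-GFP than in VASA THY1 (28.3 FPKM), THY1 (25.01 FPKM) and KIT (9.56 FPKM). Neurog3, a transcription factor gene of progenitors set to differentiate, stood at 7.30 against 14.0 FPKM, a difference of -0.85 that was not counted, with 7.13 FPKM in VASA THY1, 0.843 FPKM in THY1 and 4.13 FPKM in KIT. Rarg, the retinoic acid receptor gene of progenitors, stood at 11.7 against 19.6 FPKM (-0.70), Foxf1a at 40.9 against 60.7 FPKM (-0.56) and Lin28a, an RNA-binding protein gene, at 91.3 against 117 FPKM (-0.36). Other members were level: Sox3 at 54.6 and 55.5 FPKM, Nanos3 at 46.4 and 46.8 FPKM and Sohlh1 at 167 and 178 FPKM. Nefm, of a neurofilament subunit, had the largest positive difference at 11.3 against 7.30 FPKM (0.57).

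**Figure D4:**
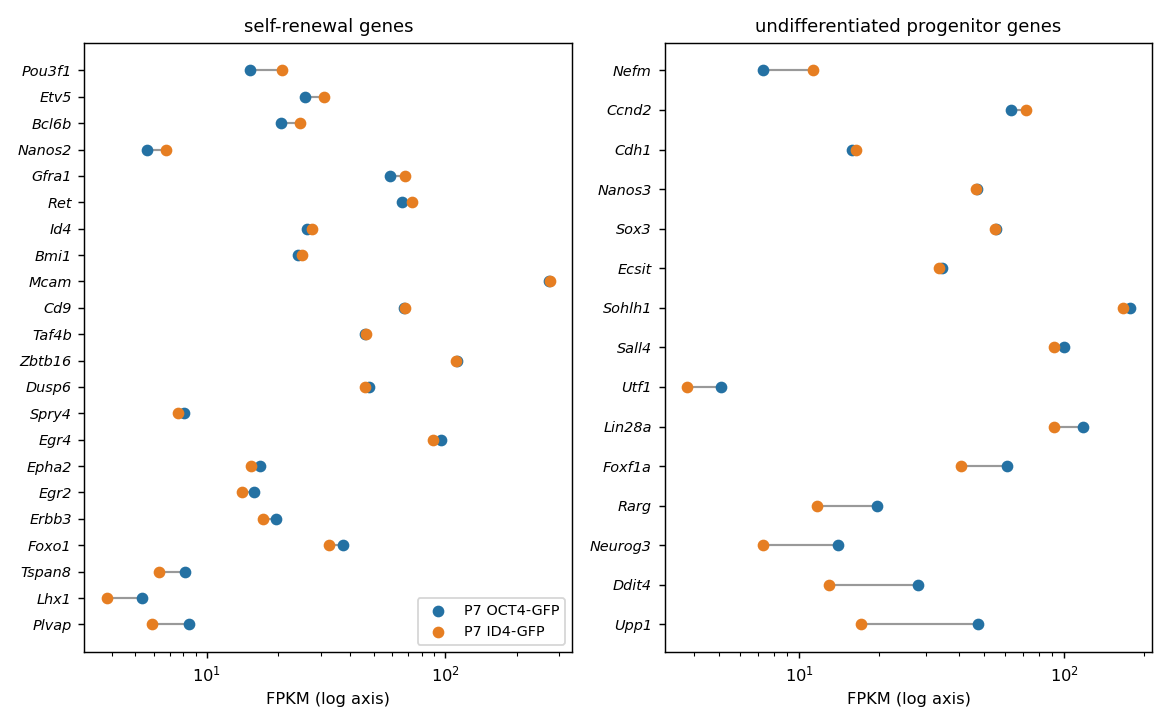
FPKM on a log axis in P7 OCT4-GFP (blue) and P7 ID4-GFP (orange) of the self-renewal genes (left) and the undifferentiated progenitor genes (right) with FPKM of 5 or more in either library, ordered by their difference. The pairs on the left nearly overlap, from Pou3f1 at 0.43 to Plvap at -0.46, while on the right Upp1, Ddit4 and Neurog3 lie furthest apart, with ID4-GFP lower.

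Dmrtb1 stood apart among 13 genes of differentiating spermatogonia with FPKM of 5 or more, as the only one counted, beside 0.0218% of all genes counted higher. It stood at 20.1 FPKM in ID4-GFP and 6.05 FPKM in OCT4-GFP (difference 1.58). In the other P7 columns it stood at 41.2 FPKM in VASA THY1, 5.49 FPKM in THY1 and 42.7 FPKM in KIT, and in P0 OCT4-GFP at 3.49 FPKM, so that ID4-GFP lay between the low and the high columns. Stra8, a retinoic acid target that prepares meiosis, stood the other way, at 61.5 against 88.2 FPKM (-0.51), and Sohlh2, a transcription factor gene of early differentiation, at 83.5 against 58.0 FPKM (0.52). The median of the 15 members with FPKM of 1 or more was 0.08. Ovgp1 stood at 7.01 against 2.00 FPKM (1.42), with 7.54 FPKM in THY1.

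Of the pluripotency and primordial germ cell genes 8 reached FPKM of 5, and 1 was counted lower, beside 1.67% of all genes. It was the transcription factor gene Klf2, at 2.35 against 8.29 FPKM. Tcl1, a coactivator gene of the kinase AKT, stood at 42.6 and 34.1 FPKM and Dppa4 at 17.2 and 14.6 FPKM. Nanog was near 0 in both libraries, listed at 0 in ID4-GFP and at 0.049 FPKM in OCT4-GFP. Of 22 meiotic prophase genes with FPKM of 5 or more 0 were counted and 18 had a positive difference, beside 58.8% of all genes. With the columns scaled to a median log2 ratio of 0, 15 were positive, beside 48.3% of all genes. Mei1, needed for meiotic breaks, stood at 7.05 against 9.66 FPKM, and the synaptonemal complex gene Sycp1 at 62.2 against 47.4 FPKM. Of the late meiotic and spermatid genes 5 reached FPKM of 5 and 0 were counted. Prm1 and Prm2, which encode the protamines of sperm chromatin, had 1.06 and 1.2005 FPKM in OCT4-GFP and were listed at 0 in ID4-GFP.

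Immediate early genes, which are induced within minutes by growth signals or by handling of tissue, had 7 of 20 members counted lower in ID4-GFP, beside 1.67% of all genes, and 4 with a pseudocount of 5 (Atf3, Cyr61, Jun and Fos). All 20 members with FPKM of 5 or more had a negative difference under every scaling tried, and those counted were Atf3, Cyr61, Fosb, Jun, Klf2, Fos and Dusp1. Of these 7 only Fos and Dusp1 reached FPKM of 5 in ID4-GFP. Fos stood at 18.8 against 52.5 FPKM, Jun, its partner in the AP-1 factor, at 4.35 against 14.9 FPKM, and Atf3, a stress-induced transcription factor gene, at 0.664 against 7.17 FPKM. Others were nearly level, such as Ier2 at 16.1 and 17.4 FPKM and Jund at 96.0 and 107 FPKM. The 25 members summed to 299.8 FPKM in ID4-GFP and 452 FPKM in OCT4-GFP, and to 563, 1753 and 1025 FPKM in VASA THY1, THY1 and KIT, so both GFP libraries were the lowest of the P7 columns. Klf2 was also in the pluripotency list. None of 13 heat shock genes was counted, and 13 had a positive difference, beside 58.8% of all genes, or 9 to 11 with other scalings. Hspd1, the mitochondrial chaperonin gene, stood at 57.5 against 43.3 FPKM.

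In the retinoic acid pathway, which drives spermatogonial differentiation, 10 of 13 genes with FPKM of 5 or more had a negative difference. With the columns scaled to a median log2 ratio of 0, 11 had. Over all genes with FPKM of 5 or more 58.8% were positive, or 48.3% with that scaling. Only 1 of the 13 was counted, beside 1.67% of all genes counted lower. That gene was Aldh1a1, which encodes an enzyme of retinoic acid synthesis, at 2.99 against 27.4 FPKM; it stood at 135, 154 and 270 FPKM in VASA THY1, THY1 and KIT. Cyp26a1, whose enzyme breaks retinoic acid down, stood at 2.23 against 5.02 FPKM (-0.90). The receptor gene Rara stood at 15.7 against 19.8 FPKM, and Rxra, of its partner, was level at 44.5 and 43.8 FPKM. The median of the 19 members with FPKM of 1 or more was -0.31, beside 0.0047 over all such genes.

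Other signalling lists had few counted members, where 1.67% of all genes were counted lower and 0.0218% higher. In the TGF-beta and BMP list 1 of 20 was counted, Inha, the inhibin subunit gene that is also a Sertoli marker, at 3.38 against 19.5 FPKM; Id3, a relative of Id4, stood at 3.23 against 6.79 FPKM (-0.88). None of 9 FGF and ERK feedback genes was counted, and Etv4 stood at 35.4 against 28.3 FPKM. None of 15 WNT genes was counted, with the secreted inhibitor gene Sfrp2 at 74.8 against 50.04 FPKM (0.57). None of 11 Notch genes was counted, with the target gene Hes1 at 48.3 against 28.4 FPKM (0.75). Of 15 glycolysis genes 0 were counted, and Ldhb, of a lactate dehydrogenase subunit, stood at 8.32 against 17.2 FPKM (-0.96). In the integrated stress list 1 of 17 was counted, which was Ddit4, and in the surface antigen list 1 of 13, which was Cd34. None of 19 cholesterol and lipid synthesis genes was counted.

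None of the 36 cell cycle genes was counted in either direction, and 25 had a positive difference, beside 58.8% of all genes at 5 FPKM or more. A split by phase was made in 2 lists drawn up after these differences were seen, so its counts are a description and no independent evidence. All 29 genes of G1 to S phase and DNA replication were positive under every scaling tried, with a median of 0.35 and a range of 0.05 to 0.79. Of 30 genes of G2 phase and mitosis 21 were negative, with a median of -0.11, and 21 to 26 were negative over the scalings tried. The median over all genes with FPKM of 5 or more was 0.04. Ccnd1, of the cyclin that opens G1, stood at 61.1 FPKM in ID4-GFP and 34.97 FPKM in OCT4-GFP, Cdc6, a replication licensing gene, at 22.1 and 13.7 FPKM, and the replicative helicase genes Mcm4 and Mcm7 at 126 and 86.7 FPKM and at 180 and 126 FPKM. The mitotic kinase genes stood the other way: Aurka at 36.3 and 56.7 FPKM, Cdk1 at 24.98 and 37.3 FPKM and Plk1 at 18.6 and 26.5 FPKM. None of these 59 genes reached 2-fold.

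**Figure D5:**
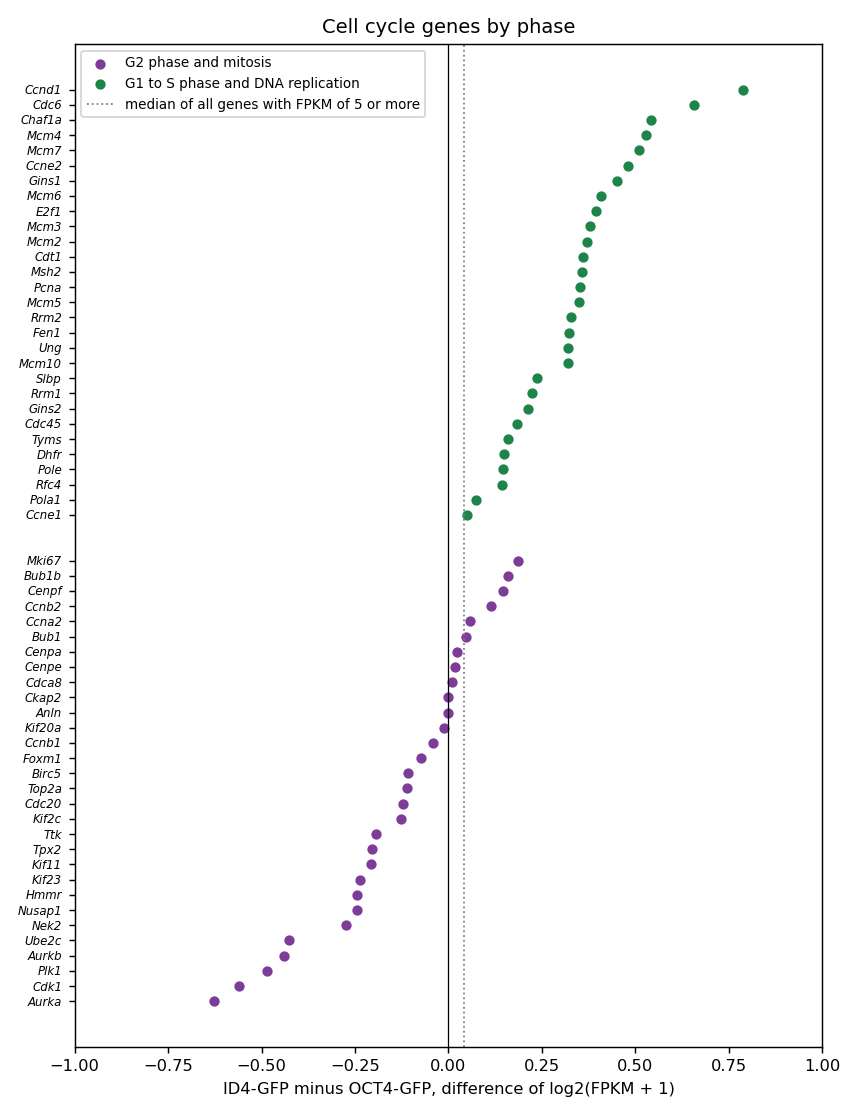
Difference of log2(FPKM + 1), ID4-GFP minus OCT4-GFP, of 29 genes of G1 to S phase and DNA replication (green) and 30 genes of G2 phase and mitosis (purple), ordered within each list; the solid line marks 0 and the dotted line the median of all genes with FPKM of 5 or more. All green points lie to the right of 0, from Ccne1 at 0.05 to Ccnd1 at 0.79, and most purple points lie to the left.

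Cdkn1b, which encodes the cell cycle inhibitor p27, was the 1 gene counted among 17 CDK inhibitor and apoptosis genes, at 4.50 against 10.2 FPKM. Over all genes 1.67% were counted lower. Pmaip1, a death-promoting gene, stood at 26.8 against 17.1 FPKM (0.61). Among 14 genes of DNA methylation and demethylation 0 were counted. The maintenance factor genes Uhrf1 and Hells had 138 and 259 FPKM in ID4-GFP against 101 and 190 FPKM in OCT4-GFP, and Dnmt1, the maintenance methyltransferase gene, at 201 against 157 FPKM. None of 27 polycomb and H3K9 methylation genes was counted, with the germline polycomb gene Scml2 at 130 against 89.0 FPKM. Of 13 maternally expressed imprinted genes 1 was counted lower, Dcn, which is also a fibroblast marker, and of 13 paternally expressed ones 0 were. Grb10, a growth-restraining adaptor gene, stood at 7.78 against 14.5 FPKM (-0.82), and Mest at 23.3 against 18.2 FPKM (0.34).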

How the data were processed

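RNA libraries of P7 OCT4-GFP and P7 ID4-GFP cells were compared. The authors deposited FPKM (fragments per transcript length and sequencing depth) for 20889 symbols in 11 columns. Per the submitters' processing notes, CASAVA, TopHat2 2.0.9, Cufflinks 2.1.1 and the build mm9 were used; their order and the annotation are not given in the sources used here. Of the symbols, 18718 are current names in the GRCm38.p6 gene table, which was used for names, and for promoter sequence from RefSeq. How the authors scaled libraries to each other is not given in the sources used here, and the 75th percentile was 17.5 FPKM in both columns.

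Differences of log2(FPKM + 1) were computed with Python 3.11.15, numpy 2.4.6 and pandas 2.3.3, and plots with matplotlib 3.10.9; a fold on this scale understates the change of low genes. Genes were counted at a difference of at least 1 (2-fold) or 2 (4-fold), given at least 5 FPKM in the higher library. The 31 gene lists are described by counts and medians. Named genes are the reporter and sort genes, the 20 largest counted differences in each direction with a characterised symbol, up to 6 members per list by size of difference, and any member of 4 germ cell lists. Genes of 4 further lists, of the symbol classes and of the closing observations, and other genes outside this rule, were chosen after their values were seen. The comparison and all lists were chosen with earlier results of these data known. Histone, Hsd3b and other family members may share reads, which makes their values uncertain. The counting rule was run on simulated 4-fold changes of genes at 20 FPKM or more. That run checks the computation and says nothing about the genes counted here. Alternatives were pseudocounts of 0.1 and 5, other FPKM minimums, scalings of the 2 columns and left-out gene sets. The 8 bisulfite and 6 chromatin samples were not analysed here. The result of 1 gene is not reported here.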

Additional observations from a re-analysis of the deposited data

How the results depend on the processing

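No paired analysis was possible because the comparison has 1 library on each side and the table gives 1 value per group. For the same reason leaving out a replicate could not be run, and the size of error between replicates is unknown. The 2 genes counted 2-fold higher in ID4-GFP became 4 with a pseudocount of 0.1, 1 with a pseudocount of 5, 1 with FPKM of 20 or more required, 5 with quantile normalization and 34 at a 1.5-fold limit. The 153 counted 2-fold lower became 92 with a pseudocount of 5, 388 with FPKM of 1 or more or with no filter on low values, 38 with FPKM of 20 or more and 311 at 1.5-fold. The 0 counted 4-fold higher became 1 with quantile normalization. The 66 counted 4-fold lower became 21 with a pseudocount of 5, 24 with FPKM of 20 or more, and 31 without the members of the other-cell and phagocyte lists. Without these members 108 remained 2-fold lower, and without genes listed at 0 in either library 151 did. The stricter and looser filters change the number of genes tested by construction. The 1.5-fold limit and the left-out sets were chosen after seeing the data. Of 1848 values of 231 named genes under the other pseudocounts, filters and scalings, 1806 stayed counted or uncounted, 38 lost the count and 4 gained it. None of the counted genes changed direction. Direction was not compared for uncounted genes, and some near 0 changed sign. Of 22 self-renewal genes 11 were positive, and 8 with the columns scaled to a median log2 ratio of 0. The 4 values that gained the count were Cyp26a1 (-1.14), Id3 (-1.05) and Ldhb (-1.04) with a pseudocount of 0.1, and Ldhb (-1.01) with that scaling. With a pseudocount of 5, Ovgp1 (0.78), Ddit4 (-0.88), Klf2 (-0.85), Fosb (-0.919), Cdkn1b (-0.67), Cd34 (-0.70), Gata4 (-0.92), Dhh (-0.85), Hsd17b3 (-0.84) and Myl9 (-0.93) were no longer counted. With quantile normalization Cdkn1b (-0.91) and Hsd17b3 (-1.61, under 5 FPKM) were not. The other 26 fell under the minimum of 20 FPKM. Of 496 counts of list members under these settings 455 stayed within 1.5 times and 41 did not. Most of these counts were 0 in the main setting, and 0 against 0 was taken as unchanged. The 455 therefore say little about the lists that had counted members.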

Other observations

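Genes of MHC class I and antigen processing, a list drawn up after the values were seen, were lower in ID4-GFP in part. Of 12 with FPKM of 5 or more 11 had a negative difference, and 3 were counted lower, beside a background of 1.67%. H2-D1 and H2-K1, which encode class I heavy chains, had 4.12 and 5.16 FPKM in ID4-GFP against 16.9 and 15.3 FPKM in OCT4-GFP, and B2m, of the light chain, at 21.5 against 57.2 FPKM. In THY1 cells B2m stood at 202 FPKM. Psmb10, of the immunoproteasome, stood at 37.9 against 56.0 FPKM, and the interferon regulatory gene Irf1 at 93.7 against 85.0 FPKM. Macrophage markers, which differ in the same direction, also belong to cells that carry class I molecules; their part in these values was not tested.

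Clustered replication histone genes varied widely around a median of -0.14 over 53 genes with FPKM of 5 or more, from -4.16 to 0.63. Of these 6 were counted lower, beside 1.67% of all genes, among them Hist1h2bl at 2.99 FPKM in ID4-GFP against 70.6 FPKM in OCT4-GFP, Hist1h4j at 56.1 against 208 FPKM and Hist1h4f at 111 against 331 FPKM. Hist1h2bm stood the other way at 934 against 602 FPKM. Their sums were 18100.5 and 19835 FPKM. These near-identical genes may share reads, so single values are uncertain.

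Y-linked genes had a positive difference in 6 of 6 with FPKM of 5 or more, with a median of 0.42. Ube1y1 stood at 79.0 against 51.0 FPKM and Eif2s3y at 42.6 against 32.0 FPKM. None reached 2-fold. Proteasome subunit genes were positive in 32 of 37, with a median of 0.16, and oxidative phosphorylation subunit genes in 63 of 83, with a median of 0.09. Cytosolic ribosomal protein genes were positive in 40 of 61, with a median of 0.06. Over all genes with FPKM of 5 or more 58.8% were positive, with a median of 0.04. None of these last 3 groups had a counted member.

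In ID4-GFP 8 genes were listed at 0 that stood at FPKM of 1 or more in OCT4-GFP, and 0 the other way. Rmrp, the RNA component of an RNA-processing enzyme, was listed at 0 against 230134 FPKM, and stood at 112036, 255813 and 196818 FPKM in VASA THY1, THY1 and KIT. Aif1, Ccl24, P2ry6, Ang, Prm1 and Prm2 were also among the 8. A gene used by every cell is thus listed at 0 in this column, and no fold is given for such genes. Whether such a 0 is a low level or a missing estimate cannot be told from FPKM values. Rmrp is among the 153 genes counted lower.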
